A study of Mus musculus with 42 samples.

Results

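The small nuclear, nucleolar and Y RNAs of the mouse reproductive tract were followed on 67 probe sets of 28856 on the array. The members were the probe sets whose platform annotation gave a single gene symbol that begins with Snord, Snora, Scarna, Rnu or Rny followed by a digit. They stood for 61 of 19938 genes with such a probe set: 31 Snord, 20 Snora, 3 Scarna, 5 Rnu and 2 Rny. A further 61 probe sets that hold such a name beside other names were left out. Tissue RNA had been hybridised to 42 Affymetrix arrays that cover whole transcripts, in 14 groups of 3 that the labels call biological replicates. All mice were adults of 3 to 7 months on a CD1/129 background, and the females were in diestrus. Uterus and vas deferens came from 5 genotypes and oviduct and epididymis from WT and AKO. WT carried no Hox mutation. AKO was Hoxa9,10,11-/- and DKO was Hoxd9,10,11-/-. AKDH was Hoxa9,10,11-/- with 1 mutant copy of the Hoxd genes (d9,10,11+/-), and AHDK was Hoxd9,10,11-/- with 1 mutant copy of the Hoxa genes. Tissues were taken whole, so that fewer cells of a type and less RNA per cell cannot be told apart.

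Small nucleolar RNAs guide the chemical modification of other RNAs, mainly ribosomal RNA. C/D-box RNAs, the Snord genes, direct ribose methylation, and H/ACA-box RNAs, the Snora genes, direct the conversion of uridine to pseudouridine, while a few of each kind are needed to cut the ribosomal precursor. Scarna RNAs modify spliceosomal RNAs in Cajal bodies. Among the Rnu genes, U5, U6 and U12 work in the spliceosome, U7 matures histone mRNA and U3 cleaves the ribosomal precursor. Y RNAs bind the Ro protein and take part in RNA quality control. In mammals most guide RNAs are cut out of introns of longer host genes, whereas Y RNAs, U6 and U7 have promoters of their own.

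The members were short: 63 of 67 were under 200 nt in the RefSeq gene table (assembly GRCm38.p6), the range was 45 to 275 nt and the median 105. Of the 67, the same source placed 59 inside the span of another gene. Total RNA had been purified on a silica column, and such columns keep long RNA better than short RNA. Small RNA was thus read only as far as the column retained it. Whether a probe set inside another gene also reads unspliced RNA of that gene was not tested. Values are on a log scale, taken as log2, and each probe set had a median of 0 within each sex (21 arrays each), so a value says how far an array lay from that median. Levels were therefore not compared between genes or between sexes. Of 6 genes with 2 probe sets, 5 gave nearly the same values on both (Pearson r above 0.99 over the 42 arrays), so these are 1 measurement each. Near-identical copies such as Snora73a and Snora73b may share signal. Among the targeted genes Hoxa11 fell in AKDH uterus (-2.78), AKO vas deferens (-1.51) and AKDH vas deferens (-1.66). Hoxa10 (-0.86) and Hoxd11 (-0.60) fell in AKDH vas deferens, and Hoxd9 fell in DKO (-0.55) and AHDK (-0.49) vas deferens and rose in AKO (0.45). No targeted gene was called in AKO, DKO or AHDK uterus, in AKO oviduct or in AKO epididymis. Hoxa11 was not called at -2.56 (SE 0.56) in AKO uterus or at -0.99 (SE 0.22) in AKO epididymis. In DKO uterus Hoxd9, Hoxd10 and Hoxd11 were at -0.12, 0.18 and -0.17, so its label has no such check. A mutation that leaves the probed RNA in place would give none. Of 5 ciliated cell markers, all were called higher in oviduct than uterus of WT mice (median 5.69). WT oviduct replicate 2 (ovary markers at 2.84), AKDH vas deferens replicate 3 and AKO epididymis replicate 1 stood apart in their tissue markers, and counts that use them are also given without them.

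In the uterus the small RNAs were highest in WT. The median over the 67 members was 0.83, 0.45 and 0.57 in the WT uterus arrays. The AKO arrays had 0.37, 0.19 and 0.00, the DKO arrays -0.07, 0.16 and 0.00, the AKDH arrays -0.22, -0.35 and -0.32, and the AHDK arrays -0.15, 0.15 and 0.00. No mutant uterus array reached the lowest WT array, and the 3 AKDH arrays lay below every other uterus array. The highest of the 15 uterus arrays was a WT array for 54 of 67 members, against 23.2% of all probe sets. For most of these members it was WT replicate 1, the array with the highest median. For 17 members all 3 WT arrays lay above all 12 mutant arrays, against 1.65% of all probe sets, and for no member did all WT arrays lie below, against 1.3%. Male arrays showed no such order: array medians lay between -0.29 and 0.17, and 2 members (Snora16a and Snord73b) had all 3 WT vas deferens arrays above all 12 mutant arrays, against 2.65% of all probe sets. Over the 305 microRNA probe sets, the array medians of WT uterus were 0.05 to 0.07 and those of the 4 mutant uteri -0.03 to 0.10. The array means of these probe sets were 0.13 to 0.15 in WT uterus, which AKO overlapped (0.03 to 0.17), and -0.06 to 0.04 in DKO, AKDH and AHDK.

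**Figure D1:**
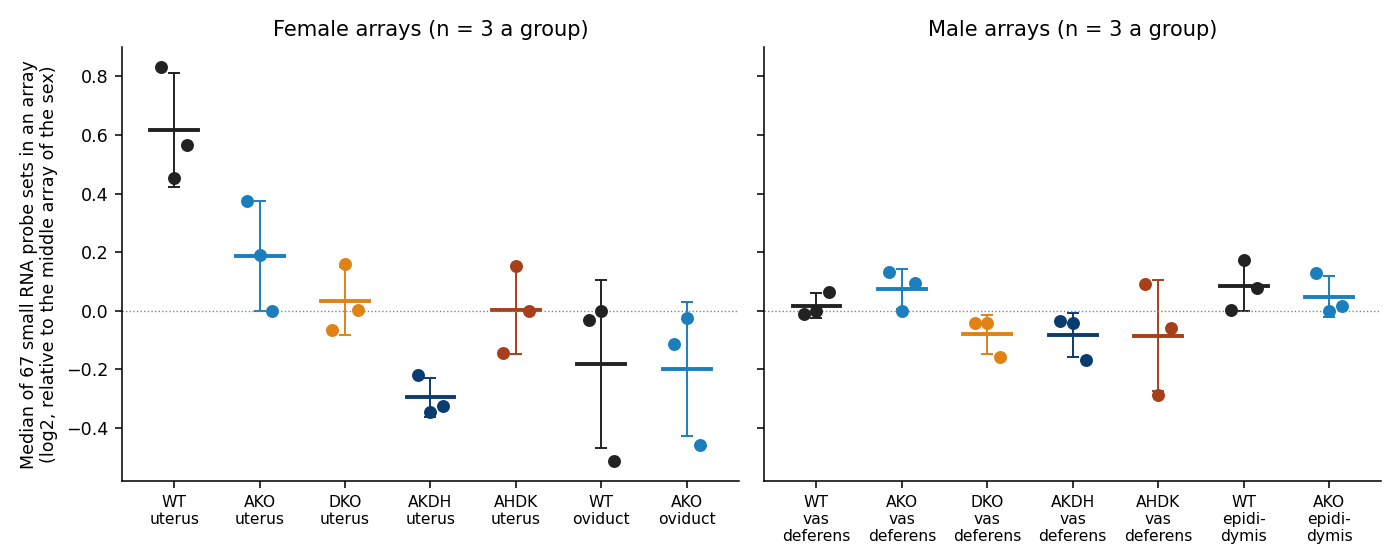
Median log2 value of the 67 small RNA probe sets on each array (points), relative to the middle array of the sex, with the group mean (bar) and SD (whisker, n = 3), for the 7 female and 7 male groups. The WT uterus arrays, from 0.45 to 0.83, lie above the other female arrays.

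Each mutant uterus was compared with WT to see which small RNAs differed. In AKDH 41 of 67 members fell and none rose (limma, adjusted p below 0.05 over all 28856 probe sets), where 3.78% of all probe sets fell and 3.26% rose. In AHDK 21 fell and 1, Snord37, rose, where 2.87% of all probe sets fell and 2.35% rose. In DKO 11 fell and none rose, against 0.953% and 0.839% of all probe sets. In AKO 4 fell and none rose, against 0.173% and 0.0832%. In AKDH, AHDK, DKO and AKO the members had a median change of -0.85, -0.54, -0.55 and -0.39, beside -0.02, -0.04, 0.00 and 0.01 over all probe sets. Below WT were 60, 60, 62 and 65 of the 67 members, in the same order. Counted once per gene, 38, 21, 11 and 4 of 61 fell. The 4 comparisons share the 3 WT uterus arrays. How much short RNA the column kept from each sample is not known, and its part in these falls was not tested.

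These counts moved with single arrays. In AKDH the 41 calls became 26 without WT replicate 1 and 22 without AKDH replicate 3. In AHDK the 22 calls became 2 without AHDK replicate 1, 6 without AHDK replicate 3, 10 without WT replicate 1 and 12 without WT replicate 3. In DKO the 11 calls became 3, 2 and 3 without WT replicate 1, 2 or 3, and 5, 2 and 1 without DKO replicate 1, 2 or 3. In AKO the 4 calls became 1, 1 and 0 without WT replicate 1, 2 or 3, and 1 and 0 without AKO replicate 1 or 2. Fitted on the 6 arrays of the groups compared alone, 16, 12, 6 and 0 members were called in AKDH, AHDK, DKO and AKO.

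**Figure D2:**
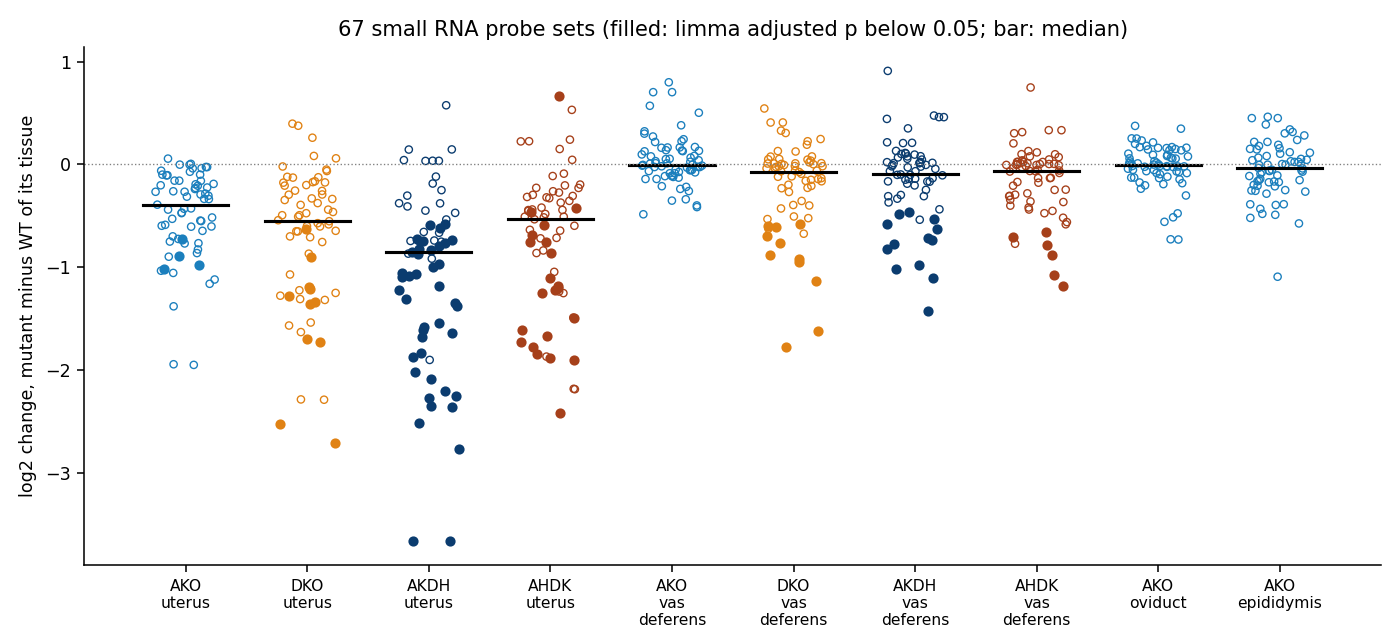
log2 change of each of the 67 small RNA probe sets in the 10 comparisons of a mutant with WT of its tissue (filled: limma adjusted p below 0.05; open: not called; black bar: median). In the 4 uterus comparisons the medians lie between -0.85 and -0.39, and in the other 6 between -0.10 and 0.00.

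Among C/D-box RNAs, Snord15a, Snord47 and Snord49b fell in all 4 mutant uteri. Snord47, which lies within the Gas5 gene, had WT values of 1.23, 0.97 and 1.09 and AKO values of 0.29, 0.06 and 0.28. The DKO arrays gave 0.00, -0.38 and -0.40, the AKDH arrays -0.43, -0.53 and -0.65, and the AHDK arrays -0.29, 0.03 and -0.12. All 12 mutant values lay well below the lowest WT value. The changes were -0.89 (SE 0.12), -1.36, -1.64 and -1.23 for AKO, DKO, AKDH and AHDK, with limma adjusted p = 0.0201, 0.00119, 0.000152 and 0.00167. Snord47 stayed called under each of 13 other settings in DKO, AKDH and AHDK, and under 8 of 13 in AKO, where the adjusted p reached 0.107.

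Snord15a, an RNA from an intron of the ribosomal protein gene Rps3, was 1.56, 1.28 and 1.24 in WT. The 12 mutant values ran from -0.41 (AKDH) to 0.78 (AKO), so again no value overlapped. Its changes were -0.98 (SE 0.17, adjusted p = 0.0487), -1.19, -1.61 (adjusted p = 0.00104) and -1.21 for AKO, DKO, AKDH and AHDK. Snord49b changed by -1.02 (adjusted p = 0.0473), -0.91, -1.38 and -0.86 for the same mutants. In AKO the calls of Snord15a and Snord49b held under 4 and 5 of 13 other settings.

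The C/D-box RNA with the deepest fall was Snord118, known as U8, which is needed to process the precursor of the large-subunit ribosomal RNA. Its first probe set was 3.57, 1.54 and 2.39 in WT and -0.30, -1.61 and -1.61 in AKDH, with no overlap, and the change was -3.67 (SE 0.97, adjusted p = 0.0434). In AHDK the values were -1.24, 2.58 and -0.42, so that 1 array lay within the WT range, and Snord118 was not called. The AKDH call held under 4 of 13 other settings, and the adjusted p reached 0.126. Snord53, a methylation guide within the Wdr43 gene, was 1.41, 1.16 and 1.40 in WT and -0.32, -1.68 and -2.18 in DKO, a change of -2.71 (SE 0.58, adjusted p = 0.0407). It also fell in AKDH (-2.51, adjusted p = 0.0264). In DKO this call held under 4 of 13 other settings.

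Snord37, from an intron of the elongation factor gene Eef2, was the one member that rose. It was -0.52, -0.10 and 0.17 in WT uterus and 0.58, 0.43 and 0.51 in AHDK, with no overlap (change 0.66, SE 0.17, adjusted p = 0.0436). The AKDH values of 0.33, 0.33 and 0.61 also lay above all WT values but Snord37 was not called there. Its AHDK call held under 5 of 13 other settings.

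Among H/ACA-box RNAs, Snora33, from an intron of the ribosomal protein gene Rps12, was 2.54, 2.30 and 1.86 in WT. The AKO arrays had 1.57, 0.62 and 0.37 and the DKO arrays -0.29, -0.04 and -0.56. The AKDH arrays had 0.26, -1.20 and -0.68 and the AHDK arrays -0.85, 0.28 and 0.00. Every mutant array lay below every WT array, and the AKO arrays lay between WT and the other mutants. It fell in DKO (-2.53, SE 0.41, adjusted p = 0.0223), AKDH (-2.77, adjusted p = 0.00364) and AHDK (-2.43, adjusted p = 0.0104). In AKO it was not called (-1.38, adjusted p = 0.231). Snora31, from an intron of Tpt1, fell in DKO, AKDH and AHDK (-1.73, -2.36 and -1.89), and its WT values of 2.12, 1.94 and 1.14 lay above the 9 values of those mutants. Snora73b, known as U17b and needed to cut the ribosomal precursor, was 1.85, 1.23 and 1.26 in WT and -1.23, -0.16 and 0.00 in AHDK, a fall of 1.91 (SE 0.45, adjusted p = 0.036). The AHDK call of Snora73b held under 8 of 13 other settings. Snora20, from an intron of Tcp1, fell in AKO (-0.73, adjusted p = 0.0487), where it was -0.25, -0.35 and 0.02 against 0.38, 0.44 and 0.79 in WT, and it was not called in the other mutants. The AKO call of Snora20 held under 4 of 13 other settings.

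Called in 3 of the 4 mutant uteri (DKO, AKDH and AHDK) were Snora31, Snora33, Snora74a, Snora7a, Snord15b, Snord87 and Snord104. The last 5 are named after their values were seen. A further 12 members were called in 2 mutants, 21 in 1 and 24 in none. The share of all probe sets called in several mutants is not given here, and the 4 comparisons share the WT arrays. By class, AKDH called 21 of 33 Snord, 17 of 23 Snora, 1 of 4 Scarna, 1 of 5 Rnu and 1 of 2 Rny probe sets. AHDK called 10 Snord, 9 Snora, 1 Scarna and 1 Rnu probe set lower. Of all probe sets, 3.78% and 2.87% were called lower in AKDH and AHDK. All 23 Snora probe sets were below WT in each of the 4 mutants, with medians of -0.52, -0.63, -1.07 and -0.75 for AKO, DKO, AKDH and AHDK. The called Scarna was Scarna13, named after its values were seen, which was 1.53, 0.60 and 0.73 in WT against -0.48, -0.14 and -0.08 in AKDH. The AHDK values of -0.57, 0.05 and -0.38 did not overlap WT either.

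The Rnu genes differed among themselves. Rnu3a, the U3 RNA, was 2.09, 0.69 and 0.97 in WT uterus, -0.45, -0.40 and -0.44 in AKDH and -0.63, -0.13 and -0.33 in AHDK. The WT values lay above all of these, and Rnu3a fell in AKDH (-1.68, SE 0.38, adjusted p = 0.0225) and AHDK (-1.61, adjusted p = 0.0334). The changes were -1.25 in DKO (adjusted p = 0.115) and -0.75 in AKO (adjusted p = 0.58). Rnu6, the U6 RNA, had the narrowest range of all members, -0.05 to 0.09 over the 21 female arrays and -0.05 to 0.08 over the 21 male arrays. Its SD was 0.04 in females and 0.03 in males, beside medians of 0.18 and 0.16 over all probe sets. Without signal over background, a steady level and a probe set that does not respond cannot be told apart. Rnu12, Rnu5g and Rnu7 were called in no mutant of any tissue. Their uterus changes ran from -0.45 (Rnu12 in AKDH, adjusted p = 0.0986) to 0.14 (Rnu7 in AKDH).

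The Y RNA Rny1 had values of 1.87, 0.38 and 0.76 in WT uterus and 1.38, 0.71 and -0.49 in AKO. The DKO arrays had -0.56, -0.40 and 0.00, the AKDH arrays -0.62, -1.38 and -0.71, and the AHDK arrays -1.09, 0.91 and -0.53. The DKO and AKDH arrays lay below all WT arrays, while AKO and AHDK overlapped WT. None of these differences was called: the change was -1.90 in AKDH (SE 0.56, adjusted p = 0.0633), -1.32 in DKO (adjusted p = 0.257), -1.24 in AHDK (adjusted p = 0.216) and -0.47 in AKO (adjusted p = 0.903). Rny3, the other Y RNA, was 0.32, 0.00 and 0.10 in WT and -0.62, -0.90 and -0.31 in AKDH, and it fell there by 0.75 (SE 0.20, adjusted p = 0.0456).

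**Figure D3:**
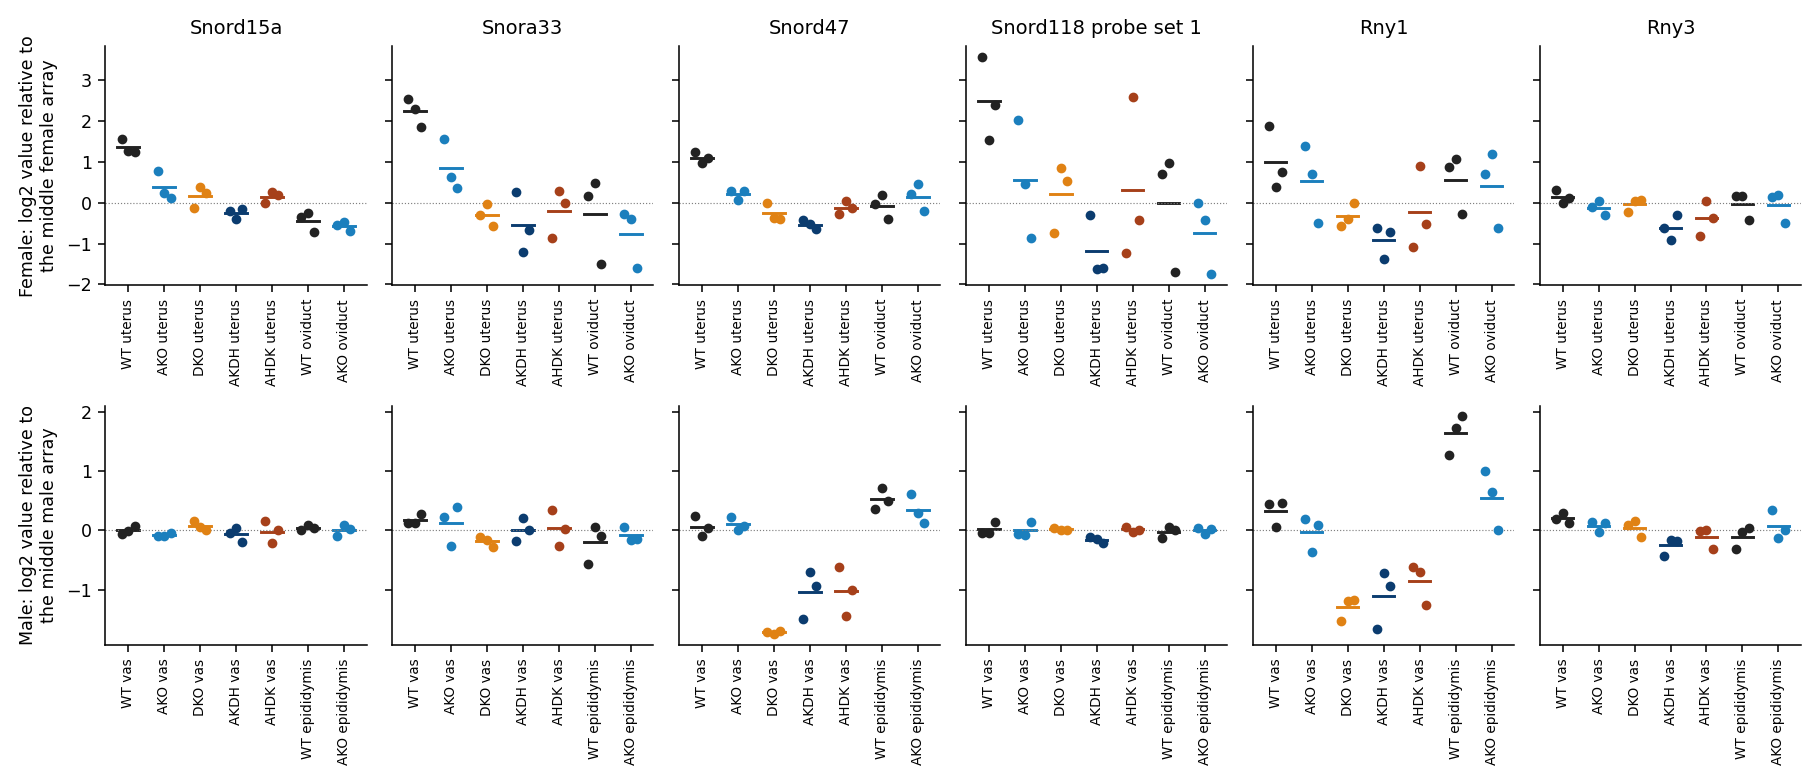
log2 values of Snord15a, Snora33, Snord47, Snord118 (first probe set), Rny1 and Rny3 on each array, relative to the middle array of the sex, with the group mean (bar, n = 3), females above and males below. Snord47 is high in WT uterus (0.97 to 1.23) and low in DKO vas deferens (-1.75 to -1.69), and Snord15a is high in WT uterus (1.24 to 1.56) and near 0 in the male groups.

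Markers of other cell types moved with some of these groups. The mean of 5 markers (Adgre1, Csf1r, Cd68, Cd74 and H2-Aa) was -0.51 to -0.22 on the WT uterus arrays. On the mutant arrays it was 0.03 to 0.24 (AKO), 0.28 to 0.99 (DKO), -0.13 to 0.45 (AKDH) and 0.63 to 1.05 (AHDK). Called higher were 0, 2, 1 and 5 of the 5 in AKO, DKO, AKDH and AHDK. The mean of 4 lymphocyte markers was -0.35 to 0.14 in WT and 0.36 to 0.70 in DKO, and that of 6 epithelium markers was -0.24 to -0.07 in WT and 0.30 to 0.36 in AHDK, both without overlap. No lymphocyte marker was called in any mutant uterus, and 1 epithelium marker was called higher, in AKDH. None of 7 smooth muscle markers was called in any mutant uterus. The part of the cell makeup in these falls was not tested. Length moved with the changes too. In AKDH the 30 genes under 100 nt had a median change of -0.76 and the 31 longer genes -1.09. Over the 61 genes Spearman's rho between length and change was -0.28, -0.34, -0.41 and -0.45 for AKO, DKO, AKDH and AHDK, a description across genes that share the same arrays.

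Most genes around the fallen members were not called. Of 47 enclosing genes, 26 had a probe set of their own, which gave 33 pairs of member and enclosing gene. Whether both lie on the same strand is not stated in the gene table used. In AKDH uterus 19 members of these pairs fell, while the enclosing gene fell for 3 of them (Gas5 with Snord47, Kansl2 with Snora2b and Ncl with Snord82) and was not called for 16. Snora2b is named after its values were seen. The median change of the enclosing gene was -0.06 and the member lay lower in 29 of 33 pairs. Rps12 changed by -0.21 beside -2.77 for Snora33, Tpt1 by 0.03 beside -2.36 for Snora31, and Rps3 by -0.06 beside -1.61 for Snord15a. In DKO, AHDK and AKO no enclosing gene was called for the 7, 11 and 3 members called. The difference between member and enclosing gene was not itself tested.

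**Figure D4:**
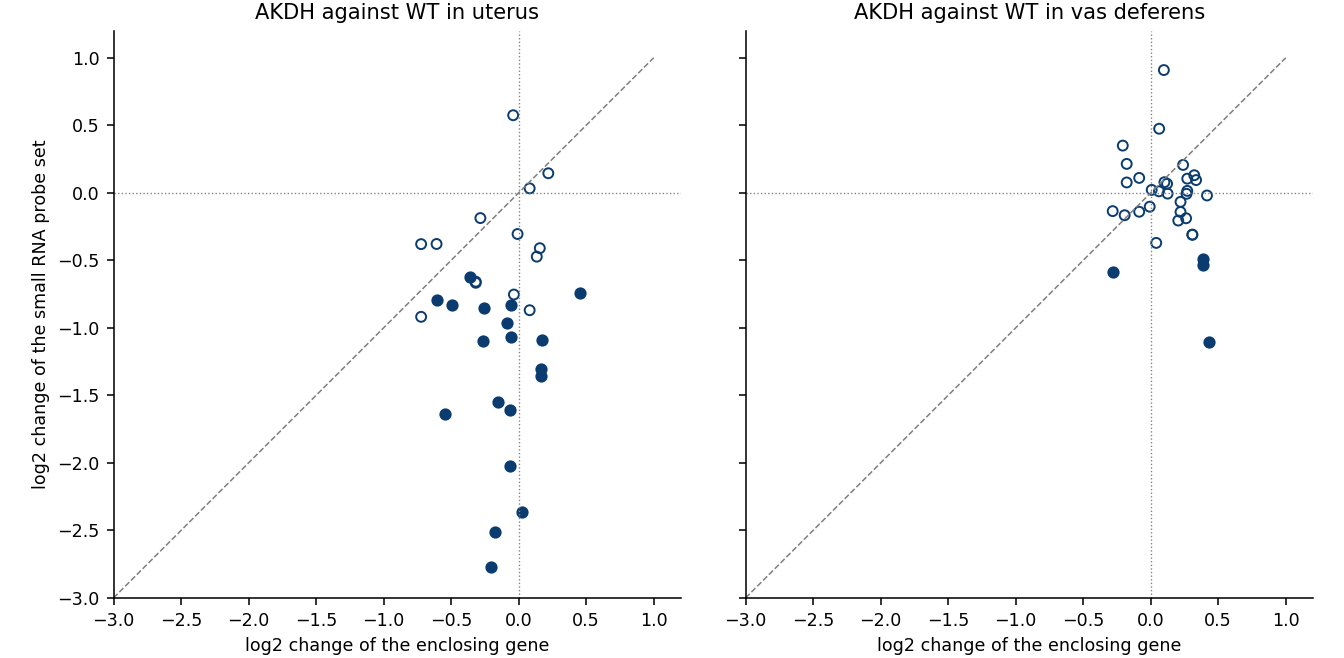
log2 change of a small RNA probe set (vertical axis) against that of its enclosing gene (horizontal axis, mean over its probe sets) for 33 pairs, AKDH against WT, in uterus and in vas deferens (filled: small RNA called by limma; dashed line: equal change). In uterus 29 of 33 points lie below the dashed line, and in vas deferens 24.

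The measured enclosing genes, Snhg genes and Gas5 together made 31 host symbols. A host symbol, or the enclosing gene of a pair, counted as called if any of its probe sets was. Among them Snhg15 and Snhg17, noncoding hosts of small nucleolar RNAs, fell in all 4 mutant uteri. In AKO, DKO, AKDH and AHDK, Snhg15 changed by -0.70 (adjusted p = 0.0291), -0.72, -0.95 and -0.94, and the first Snhg17 probe set by -0.92, -1.09, -1.36 and -1.08. In AKDH Gas5, Kansl2, Ncl and Snhg5 fell as well, and no host rose in any mutant uterus. Of 25 probe sets for proteins of small nucleolar ribonucleoproteins and their assembly, none was called in any mutant uterus. At an unadjusted p below 0.05, 0, 9, 6 and 9 differed in AKO, DKO, AKDH and AHDK, where 9.49%, 17.3%, 23.4% and 22.8% of all probe sets did. Of 60 spliceosomal probe sets, Snrnp70, the U1 protein, fell in DKO (-0.58), AKDH (-0.71) and AHDK (-0.68), and in AKDH Snrpd1 also fell and Wdr77 rose. Of 17 probe sets for Y RNA binding proteins, Puf60 rose in DKO (0.49), AKDH (0.68) and AHDK (0.57), and Ncl fell in AKDH. Of 41 probe sets for transcription of small RNA genes, 0, 2, 3 and 2 rose and 0, 0, 2 and 1 fell in AKO, DKO, AKDH and AHDK. Crcp, an RNA polymerase III subunit, was among the rises in DKO, AKDH and AHDK. Of all probe sets, 0.0832%, 0.839%, 3.26% and 2.35% rose and 0.173%, 0.953%, 3.78% and 2.87% fell in AKO, DKO, AKDH and AHDK.

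Other short RNAs outside the members fell too. Of 7 such probe sets, 4 fell in AKDH: Terc, the telomerase RNA (-1.15, adjusted p = 0.00559), Rmrp (-1.26, adjusted p = 0.0077), Rpph1, the RNA of RNase P (-0.71, adjusted p = 0.00559), and Vaultrc5, a vault RNA (-1.25, adjusted p = 0.0419). Rpph1, Terc and Rmrp fell in AHDK, Rpph1 fell in DKO, and none was called in AKO. Of 15 left-out probe sets whose names all fit the rule, 8 fell in AKDH and 8 in AHDK, with none called in DKO or AKO. MicroRNA probe sets had medians of -0.02, -0.07, -0.06 and -0.08 in AKO, DKO, AKDH and AHDK, and 2, 11, 28 and 27 of 305 fell. Beside these counts, 0.173%, 0.953%, 3.78% and 2.87% of all probe sets fell, in the same order.

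In the vas deferens fewer members moved. DKO called 11 of 67 members lower, where 4.22% of all probe sets were called lower. AKDH called 13 lower against 15.2%, and AHDK called 6 lower against 3.64%. No member rose in these 3, where 3.82%, 7.8% and 1.92% of all probe sets rose, and none was called in AKO, where 7.5% of all probe sets were called in either direction and 4 members had an unadjusted p below 0.05, as did 20.9% of all probe sets. The share of members called in AKDH (19.4%) was thus near that of all probe sets. The medians over the members were -0.07, -0.10, -0.07 and 0.00 in DKO, AKDH, AHDK and AKO, beside 0.01, -0.05, -0.02 and -0.02 over all probe sets. Without AKDH replicate 3, the array that stood apart, 12 were called in AKDH, 11 in DKO, 6 in AHDK and 1 in AKO. The AKDH count became 8 without AKDH replicate 1. The DKO count became 6, 5 and 7 without WT replicate 1, 2 or 3, and 6, 5 and 5 without DKO replicate 1, 2 or 3. The AHDK count became 0, 3 and 2 without WT replicate 1, 2 or 3, and 2 and 3 without AHDK replicate 2 or 3.

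Called in DKO, AKDH and AHDK vas deferens alike were Rny1, Snord47, Snora16a, Snora44, Snora73a and Snora73b. Of these, Snora44 and Snora73a are named after their values were seen. The share of all probe sets called in all of these mutants is not given here, and the comparisons share the WT arrays. Rny1 was 0.45, 0.06 and 0.46 in WT and 0.18, -0.37 and 0.09 in AKO, which overlapped. The DKO arrays had -1.52, -1.18 and -1.18, the AKDH arrays -1.66, -0.72 and -0.93, and the AHDK arrays -0.62, -0.69 and -1.26, all below every WT and AKO value. Its changes were -1.62 for DKO (SE 0.25, adjusted p = 0.00422), -1.43 for AKDH (adjusted p = 0.00214) and -1.18 for AHDK (adjusted p = 0.0196), with -0.35 for AKO (adjusted p = 0.483). Rny1 stayed called under each of 14 other settings in DKO and AKDH, and under 10 of 14 in AHDK. Rny3 fell in AKDH (-0.46, adjusted p = 0.00979), with values of -0.43, -0.16 and -0.17 against 0.20, 0.30 and 0.12 in WT, and was not called in DKO or AHDK.

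Snord47 was 0.24, -0.10 and 0.04 in WT vas deferens and 0.22, 0.00 and 0.08 in AKO. The DKO arrays had -1.72, -1.75 and -1.69, the AKDH arrays -1.50, -0.70 and -0.94, and the AHDK arrays -0.62, -1.44 and -1.01, with no overlap. Its changes were -1.78 (SE 0.21), -1.11 and -1.08 for DKO, AKDH and AHDK, with adjusted p = 0.00123, 0.00328 and 0.0128. Snord47 thus fell in DKO, AKDH and AHDK in both tissues, whereas Snord15a, called in all 4 uteri, was called in no vas deferens. Over the 21 male arrays Snord15a had a range of 0.38, against 2.28 in females. Its male SD was 0.10, beside a median of 0.16 over all probe sets. An unchanged level and a signal too weak to move cannot be told apart there. In vas deferens Snord49b fell in DKO (-1.14, adjusted p = 0.0111) and AKDH (-0.98, adjusted p = 0.00833).

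Snora73b was 0.76, 0.35 and 0.71 in WT vas deferens and -0.32, -0.24 and -0.37 in DKO. The AKDH arrays had -0.66, -0.17 and -0.39 and the AHDK arrays -0.22, -0.61 and 0.00. No array of these mutants reached WT, and its changes were -0.92, -1.01 (SE 0.18, adjusted p = 0.0027) and -0.88. Snora16a and Snora44, which lie together in Snhg12, changed by -0.58 and -0.70 for DKO, -0.77 and -0.74 for AKDH, and -0.66 and -0.71 for AHDK. Of 14 other settings, 7, 14 and 9 kept the calls of Snora16a and 6, 12 and 3 those of Snora44, in the same order. In AKO vas deferens the smallest adjusted p-values were those of Rnu7 (-0.42, adjusted p = 0.0631), Snord73b (-0.49, adjusted p = 0.11) and Snora16a (-0.40, adjusted p = 0.144). Rnu7 was -0.39, -0.11 and -0.32 there against 0.12, 0.00 and 0.31 in WT.

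Some enclosing genes rose in vas deferens. In AKDH 4 members of the 33 pairs fell, and for 3 of them the enclosing gene rose: Snord47 within Gas5, whose 4 probe sets changed by 0.43 on average, and both Snora3 probe sets within Rpl27a, which changed by 0.38. Snora3 is named after its values were seen. In DKO and AHDK the mean change of Gas5 was 0.29 and 0.34 and it was not called. Among the protein lists, 5, 4 and 3 of 25 probe sets of the nucleolar group were called lower in DKO, AKDH and AHDK, beside 4.22%, 15.2% and 3.64% of all probe sets, with Snu13, a core protein of C/D-box particles, among them each time. Puf60 rose in DKO (0.30), AKDH (0.35) and AHDK (0.31), and Brf2, which starts RNA polymerase III at U6-type promoters, rose by 0.49, 0.58 and 0.61. The vault RNA Vaultrc5 changed by -0.70, -0.88 and -0.92.

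Markers of fat, muscle and sperm moved with part of these groups. The mean of 7 adipocyte markers was -1.16 to 0.27 in WT vas deferens. It was 0.39 to 1.51 (AKO), -0.52 to -0.03 (DKO), 1.27 to 1.55 (AKDH) and 1.19 to 1.67 (AHDK), and 4, 0, 7 and 6 were called higher. Smooth muscle markers had means of 0.27 to 0.66 (WT), -0.33 to 0.09 (AKO), 0.46 to 0.67 (DKO), -0.39 to -0.08 (AKDH) and 0.01 to 0.69 (AHDK), and 2, 0, 5 and 0 of 7 fell in the mutants. Sperm markers had means of 0.15 to 0.84 in WT and -1.17 to -0.92 in AKO, and -1.33, -1.20 and 0.42 on the AKDH arrays, in rising order, and 2 of 8 fell in each of the 2 mutants. In DKO no fat, smooth muscle or sperm marker was called. The part of the cell makeup in the vas deferens values was not tested.

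Adding 1 mutant copy of the other cluster was read from AKDH against AKO and from AHDK against DKO. In vas deferens 3 members were lower in AKDH than in AKO: Snord47 (-1.15, adjusted p = 0.0149), Rny1 (-1.07, adjusted p = 0.0446) and Snora73b (-0.78, adjusted p = 0.0494), against 2.06% of all probe sets called lower and 0.575% called higher. This count became 0 without AKO replicate 1, AKO replicate 3 or AKDH replicate 1, and 1 without AKDH replicate 3. AHDK against DKO called no member there, with 5 at an unadjusted p below 0.05, where 0.527% of all probe sets were called and 12.6% had such a p. In uterus neither comparison called a member. AKDH against AKO had 39 members at an unadjusted p below 0.05, as had 12.1% of all probe sets, with a median of -0.48, and no probe set at all was called (0.0%). Without AKO uterus replicate 3, 14 members were called lower. AHDK against DKO had 3 members at an unadjusted p below 0.05, as had 7.38% of all probe sets, a median of -0.01, and 0.0208% of all probe sets called.

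In AKO oviduct and AKO epididymis no member was called, where 0.0% and 0.267% of all probe sets were called. At an unadjusted p below 0.05, 3 and 10 members differed, as did 3.19% and 14.5% of all probe sets, and the medians were 0.00 and -0.04. The smallest adjusted p-values in oviduct were those of Snord14e (-0.56), Snora23 (-0.52) and Snord85 (0.37), each 0.992. In epididymis Rny1 was 1.28, 1.73 and 1.92 in WT and 1.01, 0.65 and 0.00 in AKO, which did not overlap, with a change of -1.09 (SE 0.29, adjusted p = 0.183). Sperm markers, whose mean of 8 was 2.21 or more on each WT epididymis array and -0.68 or less on each AKO array, moved with it, and their part was not tested. Snord42b and Snord82 were the other 2 with the smallest adjusted p-values, at -0.58 (adjusted p = 0.107) and -0.43 (adjusted p = 0.194).

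Between WT tissues, 43 members were lower in oviduct than in uterus and none higher, where 10.8% of all probe sets were lower and 12.2% higher. This comparison uses the same 3 WT uterus arrays, and the part of short RNA recovery was not tested here either. The count was 43 without WT oviduct replicate 2, the array that stood apart. The median was -0.84. Snora33 (-2.52, adjusted p = 0.00205), Snora31 (-1.93, adjusted p = 0.00272) and Snord15a (-1.80, adjusted p = 7.51e-07) had the largest falls. Snord15a was -0.34, -0.25 and -0.72 in WT oviduct, and every uterus array but AKDH replicate 2 (-0.41) lay above these values. Rny1 and Rny3 were not called (-0.45 and -0.17). Enclosing genes fell here too. In the 33 pairs 26 members were called lower, and the enclosing gene was called lower for 11 of them and not called for 15. The median change of the enclosing gene was -0.27, and the member lay lower in 28 pairs. Of 31 host symbols, 14 were lower and 1 higher, each counted if any of its probe sets was called, unlike the shares of single probe sets. WT oviduct replicate 3 was low across members, with a median of -0.51 against -0.03 and 0.00 in the other 2, and AKO oviduct replicate 3 likewise had -0.46 against -0.11 and -0.03. Same-numbered WT and AKO oviduct arrays deviated together (r of 0.15, 0.22 and 0.44).

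In WT epididymis 9 of 67 members were higher than in WT vas deferens and none lower, where 10.6% of all probe sets were higher and 13.9% lower. The share of members called higher was thus near that of all probe sets. Rny1 led with a difference of 1.32 (SE 0.28, adjusted p = 0.00208), followed by the 2 probe sets of Scarna17 at 0.92 (adjusted p = 0.0362 and 0.0366). Scarna17 was 0.24, 0.00 and 0.56 in epididymis and -0.90, -0.68 and -0.38 in vas deferens, with no overlap. Of 31 host symbols, 16 were higher in epididymis and 1 lower, each counted if any of its probe sets was called, unlike the shares of single probe sets. All 8 sperm markers were higher and all 7 smooth muscle markers lower in epididymis, and their part was not tested. Same-numbered WT arrays of these 2 tissues deviated together, and with the replicate number as a block 11 members were higher and 2 lower. The count was 3, 3 and 5 without WT vas deferens replicate 1, 2 or 3, 5 without WT epididymis replicate 1, and 10 without the arrays that stood apart.

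The effect of AKO differed between 2 tissues for 1 member. Snord42b, a methylation guide, was -0.14, -0.01 and 0.03 in WT and 0.19, 0.15 and 0.43 in AKO vas deferens, but 0.08, 0.32 and 0.18 in WT and -0.23, -0.36 and -0.56 in AKO epididymis. The AKO arrays lay above WT in the former and below WT in the latter. Sperm markers were lower in AKO in both tissues, and smooth muscle markers went from means of -0.78 to -0.10 in WT to -1.94 to -1.21 in AKO epididymis, where none was called. Their part was not tested. The difference of the effects was -0.87 (SE 0.19, adjusted p = 0.0137), where 2.66% of all probe sets were lower and 2.93% higher. With the replicate number as a block its adjusted p was 0.0464, and 3 members were called. Between oviduct and uterus no member was called. Of the members 9 had an unadjusted p below 0.05, as had 4.39% of all probe sets, and the median difference was 0.41, where 0.0104% of all probe sets were called. Snord47 had the smallest adjusted p there (1.12, adjusted p = 0.364).

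Within a sex the members varied together, more so in females. Over the 1830 pairs of the 61 genes the median Pearson r was 0.59 on the 21 female arrays and 0.26 on the 21 male arrays, and 1608 and 1429 pairs were above 0. The median SD of a member was 0.47 in females and 0.24 in males, beside 0.18 and 0.16 over all probe sets. The widest ranges were those of Snord118 (5.33, first probe set) and Snora33 (4.14) in females and of Rny1 (3.59), Snord53 (2.90) and Snord47 (2.46) in males. Snord53 in males rested on 2 arrays, DKO replicate 2 (-2.42) and AHDK replicate 2 (-2.38). The members most like Rny1 over the 21 female arrays were Snord33 (r 0.86), Rny3 (0.86), Snord35b (0.85), Snora73a (0.84) and Snora7a (0.84). Over the 21 male arrays they were Snord47 (0.91), Snora74a (0.80), Snord73b (0.80), Snord104 (0.77) and Snora73a (0.75). These correlations run across groups and share libraries. Rny1 and Rny3, the 2 Y RNAs, had an r of 0.86 in females and 0.30 in males.

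**Figure D5:**
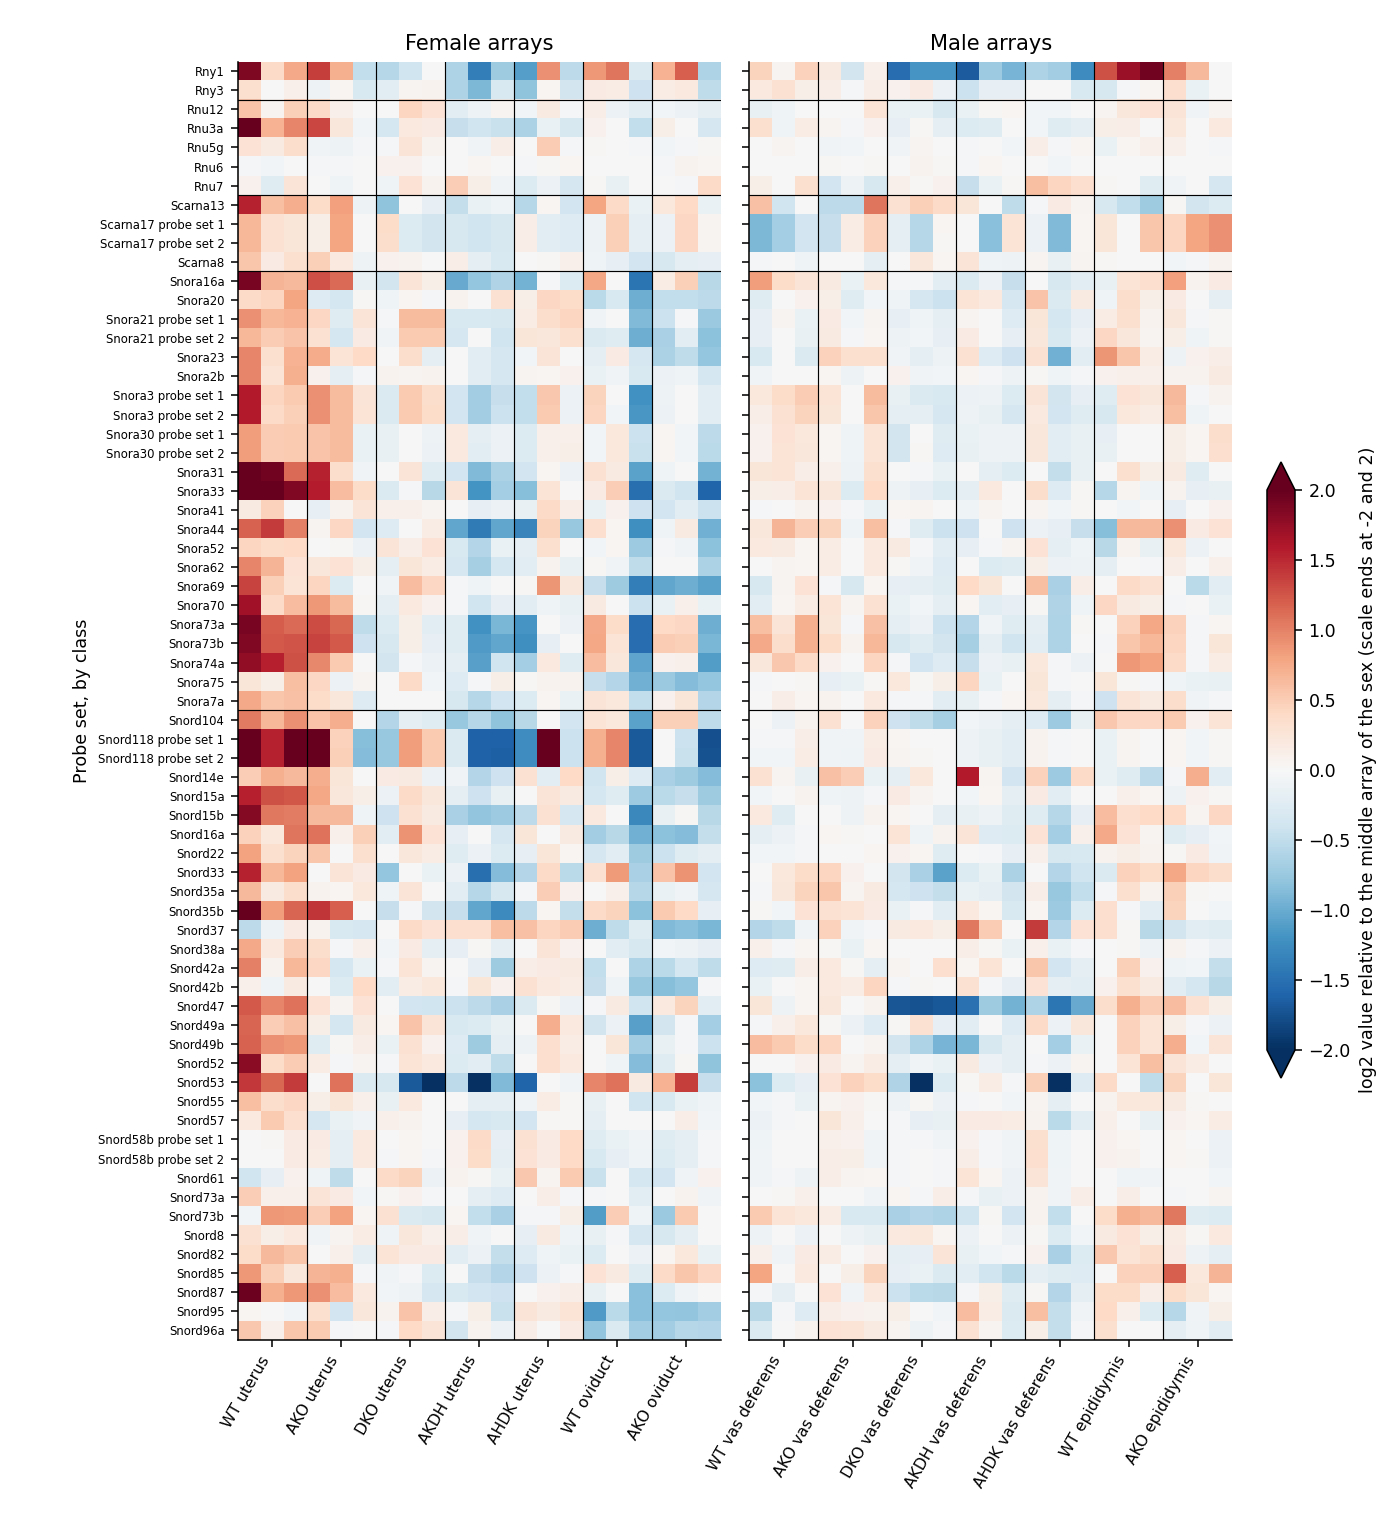
log2 values of all 67 small RNA probe sets (rows, by class) on the 21 female and 21 male arrays (columns, 3 to a group), relative to the middle array of the sex, with the colour scale ending at -2 and 2. Most rows are highest in WT uterus, and among male arrays Rny1 is high in epididymis and low, with Snord47, in DKO, AKDH and AHDK vas deferens.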

How the data were processed

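The deposited table held 28856 probe sets on 42 arrays as log values, taken as log2 values. The log base, the summarisation, the normalisation between arrays and the array's genome build were not stated in the sources at hand. Centring was read from the table itself, in which each row's median over the arrays of a sex is 0. Array medians lay between -0.0538 and 0.0371 and array SDs between 0.177 and 0.644. The scale is unknown. Higher values were read as more RNA, which the falls of Hoxa11 fit in direction, and without signal over background the number of arrays limits the precision. Per the labels' protocols, total RNA came from fresh tissue by a column kit, and 300 ng was copied and labelled with biotin.

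Every probe set was fitted with limma (version 3.58.1, R 4.3.3; lmFit, then eBayes). The fit held every array of 1 tissue, and for comparisons of tissues every array of the sex. Benjamini-Hochberg adjustment ran over 28856 probe sets, with 0.05 as the limit for a call. The script was tested on simulated data. There were 18 comparisons. The p-values rest on the spread between arrays within groups, pooled over all groups in the fit and moderated by eBayes. A change is a difference of group means on the log2 scale. Symbols came from the platform annotation, and lengths and enclosing genes from the RefSeq table of GRCm38.p6, which gave no strand, so that enclosure was read without it.

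Named members were the Y and Rnu RNAs, the 3 largest called rises and falls of a comparison (or the 3 smallest adjusted p-values where under 3 were called), the 3 widest ranges and the 5 closest to Rny1 in each sex, with up to 4 genes of each companion list. Members, lists and rules were chosen with earlier results of these data known. Alternatives were quantile normalisation, centring each array, the more variable probe sets, gene means, a robust prior, a replicate block, the 2 groups alone, leaving out 3 arrays that stood apart, and leaving out each array. Same-numbered arrays were paired by the data (each correlation of deviations above 0.1) in 4 of 42 pairs of groups. These were vas deferens with epididymis in WT and in AKO, AKO uterus with AKO oviduct, and WT oviduct with AKO oviduct. The last pair joins different genotypes. No histone probe set matched and no sequence of a member was used here.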

Additional observations from a re-analysis of the deposited data

Results flagged for a closer look

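The AKO effect on Snord42b in epididymis against vas deferens was -0.874 (log2 scale) by the test of the difference itself. Snord42b was the 1 member of 67 called, where 2.66% of all probe sets were called lower and 2.93% higher. AKO lay above WT in vas deferens (0.30) and below WT in epididymis (-0.58), in each case without overlap of the 3 and 3 arrays, and neither change was called on its own. The call held under each of 19 other settings, with adjusted p-values between 0.0105 and 0.0464. Sperm and smooth muscle markers differed between AKO and WT in the same tissues, and their part was not tested.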

How the results depend on the processing

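Counts of called members moved more with the arrays used than with the scaling. AKO against WT in uterus (4 called) gave 1 with gene means, 2 with a robust prior, 2 with the replicate block and 0 with the 2 groups alone. DKO against WT in uterus (11) gave 7 after quantile normalisation and 6 with the 2 groups alone. AKDH against WT in uterus (41) gave 16 and AHDK against WT in uterus (22) gave 12 with the 2 groups alone. AKO against WT in vas deferens (0) gave 1 after quantile normalisation, with the more variable probe sets, without the 3 arrays that stood apart and with the 2 groups alone. DKO against WT in vas deferens (11) gave 6 after quantile normalisation, and AHDK against WT in vas deferens (6) gave 0 with the 2 groups alone. AKDH against AKO in vas deferens (3) gave 1 with each array centred, with gene means, without the 3 arrays and with the replicate block, and 0 with the 2 groups alone. WT epididymis against vas deferens (9) gave 4 after quantile normalisation, and the AKO effect in epididymis against vas deferens (1) gave 3 with the replicate block. The replicate block changed no other count by over 1.5 times. Leaving out 1 array at a time gave 0 to 3, 1 to 5, 22 to 36 and 2 to 23 called members in AKO, DKO, AKDH and AHDK uterus, 0 to 0, 5 to 7, 8 to 12 and 0 to 6 in the same vas deferens genotypes, and 0 to 0 in AKO oviduct and AKO epididymis. It gave 0 to 14 in AKDH against AKO and 0 to 0 in AHDK against DKO in uterus, 0 to 3 and 0 to 0 in vas deferens, 29 to 44 for oviduct against uterus, 3 to 6 for epididymis against vas deferens, 0 to 0 and 1 to 1 for the AKO effect between tissues. The cause of these shifts was not tested. Settings that use only the 2 groups or leave out arrays also rest on fewer arrays. No called value of a named member changed sign. Uncalled values of Rny1 did in AKO against WT in uterus (-0.47, up to 0.04) and oviduct (-0.13, up to 0.39), AHDK against DKO in uterus (0.08, down to -0.49) and the AKO effect in oviduct against uterus (0.34, down to -0.18), and those of Rny3 in AKO oviduct (-0.02, up to 0.20) and oviduct against uterus (-0.17, up to 0.02). Signal over background is unknown, so dim probe sets could not be set aside.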
